A study of Mus musculus with 14 samples.

Results

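The genes described here are the orphan and adhesion G protein-coupled receptors of mouse hippocampal cultures: every gene whose symbol is Gpr followed by digits only, or Adgr followed by a letter and a digit, with at least 80 read counts summed over 8 RNA-seq libraries. These are 60 of 96 genes with such a symbol and of 43629 genes in the count tables, 44 named Gpr and 16 named Adgr. Genes of the same families with other symbols, such as the Celsr genes or Gpr37l1, were not included. Primary cultures came from hippocampus of wild type C57BL6 pups of postnatal day 0 to 1 and were kept for 14 days in vitro. In the PTX group (n = 4) the cultures received 100 µM picrotoxin for 15 h, and in the CTRL group (n = 4) they received 0.1% DMSO for 15 h. Picrotoxin is a blocker of GABA-A channels, which carry most fast inhibition, and cultures given it become more active. The series also holds ChIP-seq for the chromatin reader L3mbtl1 in hippocampus of L3mbtl1-/- (3 samples) and wild type (3 samples) mice of strain C57BL6/129 at postnatal day 7 to 8, deposited as 1 peak list for both genotypes, which therefore could not be compared. A primary culture mixes neurons with glia, and its transcript levels are averages over all cells.

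G protein-coupled receptors pass a signal from outside the cell through the membrane to heterotrimeric G proteins, which act on enzymes such as adenylyl cyclase and on ion channels. A receptor is called an orphan while no ligand for it is generally accepted. Many orphan receptors are most abundant in brain, and some signal without any ligand. Adhesion receptors carry a long extracellular part that is cut from the membrane part during synthesis and binds partners on neighbouring cells or in the matrix. In the hippocampus, latrophilins (Adgrl) and the brain-specific angiogenesis inhibitor family (Adgrb) are known from synapses.

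Gene counts per library ran from 14524916 to 19498189, and the 60 genes took 0.198% to 0.255% of them. Levels are given as CPM, counts scaled to a TMM-adjusted library size of 1000000, and are not divided by transcript length, so levels of different genes are not compared. The design text calls the 4 cultures of each group biological replicates. PTX and CTRL libraries numbered 1, 2 and 4 deviated together from their group means (correlation 0.789, 0.584 and 0.654). At number 3 the correlation was 0.165, within the -0.531 to 0.221 of pairs with unlike numbers. A fit with the replicate number as a block is therefore given where it changes a call. Both libraries numbered 1 stood apart: the summed level of 8 meningeal fibroblast markers was 565 CPM in PTX library 1 and 115 to 142 CPM in the other PTX libraries, and 709.6 CPM in CTRL library 1 and 154 to 225 CPM in the other CTRL libraries. The summed level of 9 microglia markers was 42.9 CPM in PTX library 1 and 70.1 to 160.4 CPM in the others, and 17.4 CPM in CTRL library 1 and 70.2 to 84.2 CPM in the others. Single markers went the other way: Ogn, of the meningeal list, was lowest and Tmem119, of the microglia list, highest in library 1 of both groups. No gene of the marker lists had 0 counts over all 8 libraries.

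Membership followed from symbol and summed counts alone, but this rule was set with earlier results of these data known. The lowest members were Gpr165 (94 counts), Gpr62 (114) and Gpr65 (126), and the highest genes left out were Gpr183 (79), Gpr35 (66) and Adgrf5 (64). Of the 36 genes left out, 3 had 0 counts in every library. Gpr165 (20 counts in PTX, 74 in CTRL) and Adgrd1 (138 in PTX, 36 in CTRL) passed through 1 group alone, in that their other group, doubled, stays under 80, so a difference was built into their choice. The strand setting of the counting is not given in the sources used here, and 41 of the 60 genes overlap another annotated gene, 19 of them a protein-coding one, so reads of such neighbours cannot be told apart.

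Receptor transcripts differed between PTX and CTRL in both directions. Of the 60 genes, all of which were tested, 14 rose and 15 fell (edgeR quasi-likelihood test, Benjamini-Hochberg adjusted p under 0.05 over 15959 genes), and 31 did not pass. Of all tested genes 19.0% rose and 20.1% fell, against 23.3% and 25.0% of the receptors, so both shares were near the background. At 2-fold or more, 10 of the 60 receptors rose and 7 fell, where 6.75% of all tested genes rose and 5.13% fell by that much. At this threshold both receptor shares were above the background, which was not tested. They include Adgrd1 and Gpr165, for which a difference was built into their choice. The CPM values of the PTX and CTRL libraries did not overlap in 26 receptors (43.3%), against 38.0% of all tested genes. The median log2 fold change was -0.03 over the receptors and -0.03 over all tested genes. With the replicate block 18 rose and 18 fell (25.7% and 29.6% of all tested genes). With DESeq2 15 rose and 14 fell (16.8% and 14.7% of the larger set of 20795 genes to which DESeq2 gave an adjusted p). Of the 15959 genes tested in edgeR, DESeq2 called 6217 and edgeR 6248 in either direction. Without both libraries numbered 1, 15 rose and 11 fell, where 6010 of 15911 genes were called in either direction. Among Gpr genes 10 rose and 10 fell of 44, and among Adgr genes 4 rose and 5 fell of 16.

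**Figure D1:**
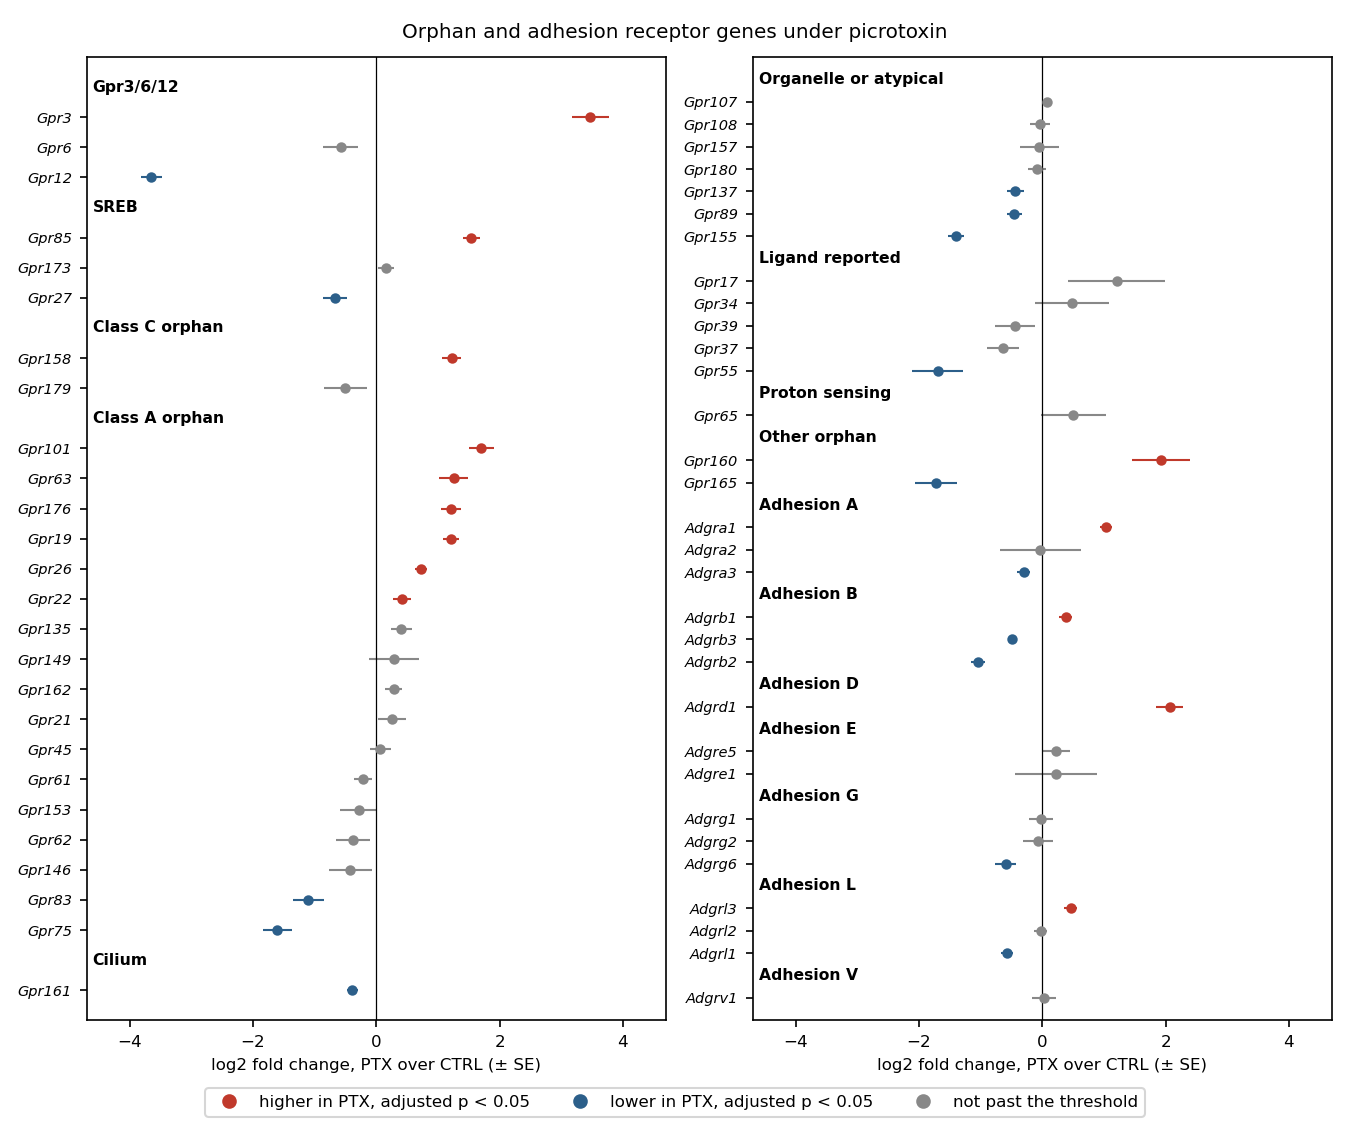
Log2 fold change of 57 receptor genes, PTX over CTRL (x axis), with SE as bars and genes grouped by role down the page. Red genes passed the test as higher in PTX, blue as lower, grey did not pass; Gpr3 and Gpr12, of the same small family, lie at the right and left ends with 3.47 and -3.65.

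The largest rise and the largest fall belonged to the same small family. Gpr3, Gpr6 and Gpr12 are related receptors that couple to the stimulatory G protein and raise cAMP without an added ligand. Gpr3 (ENSMUSG00000049649, GRCm38.p6 chr4:133209340-133212536) had 13.1, 8.61, 11.0 and 11.3 CPM in the PTX libraries, against 0.884, 1.68, 0.699 and 0.653 CPM in the CTRL libraries. Every PTX library exceeded every CTRL library, and Gpr3 rose 11.1-fold (log2 change 3.47 ± 0.29 SE; adjusted p = 1.52e-05, edgeR). Gpr12 (ENSMUSG00000041468, chr5:146582150-146586465) had 2.11, 1.95, 1.86 and 1.46 CPM in the PTX libraries, against 27.5, 23.6, 23.0 and 18.6 CPM in the CTRL libraries. Here each PTX library lay far below each CTRL library, and Gpr12 fell 12.5-fold (log2 change -3.65 ± 0.17 SE; adjusted p = 6.45e-07, edgeR). Gpr6 (ENSMUSG00000046922, chr10:41069977-41072290) had 2.36, 1.53, 1.31 and 2.18 CPM in the PTX libraries, against 3.13, 3.70, 2.25 and 1.96 CPM in the CTRL libraries. Its groups overlapped and it did not pass the test (log2 change -0.58 ± 0.28 SE; adjusted p = 0.136, edgeR; adjusted p = 0.0545 with the replicate block). Beside these changes, 5 of 6 excitatory neuron markers fell and 0 rose (1 rose with the replicate block). Over all tested genes 20.1% fell and 19.0% rose. The summed level of the 6 markers was 220.3 to 251 CPM in PTX and 426 to 545 CPM in CTRL. Fewer cells of a type and less RNA per cell cannot be told apart in bulk cultures, and the part of cell composition in these results was not tested.

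**Figure D2:**
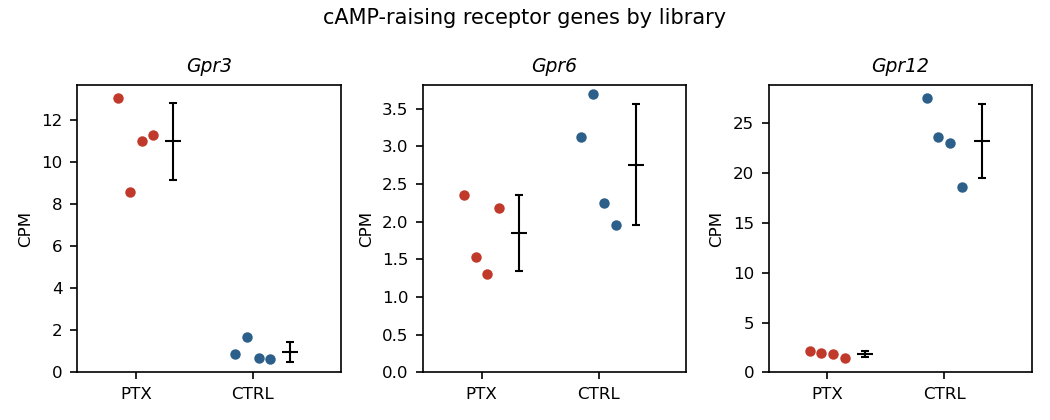
CPM (y axis, from 0) of Gpr3, Gpr6 and Gpr12 in the 4 PTX (left) and 4 CTRL (right) libraries, 1 point per library, with mean and SD as the black bar. Gpr3 averaged 11.0 CPM in PTX and 0.98 CPM in CTRL, Gpr12 1.84 CPM in PTX and 23.2 CPM in CTRL, and the Gpr6 groups overlap.

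The promoters of this family are shown because its members moved in opposite directions. They are RefSeq windows on GRCm38.p6 from 250 bases before to 50 after an annotated start site, and 44 of the 60 receptors matched the table. Capitals mark 4 motifs searched on both strands: the cAMP response element TGACGTCA, its core TGACG, the AP-1 motif TGANTCA and the Egr1 motif GCGNGGGCG. The full element contains the core on both strands, so these 2 searches overlap.
Gpr3 promoter, chr4:133212487-133212786, minus strand: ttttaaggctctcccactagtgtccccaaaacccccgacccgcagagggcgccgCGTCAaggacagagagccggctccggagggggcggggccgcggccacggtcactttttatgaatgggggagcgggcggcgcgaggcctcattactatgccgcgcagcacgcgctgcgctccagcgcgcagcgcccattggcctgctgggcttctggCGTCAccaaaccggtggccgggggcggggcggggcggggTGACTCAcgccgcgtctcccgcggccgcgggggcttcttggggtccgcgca
Gpr6 promoter, chr10:41072241-41072540, minus strand: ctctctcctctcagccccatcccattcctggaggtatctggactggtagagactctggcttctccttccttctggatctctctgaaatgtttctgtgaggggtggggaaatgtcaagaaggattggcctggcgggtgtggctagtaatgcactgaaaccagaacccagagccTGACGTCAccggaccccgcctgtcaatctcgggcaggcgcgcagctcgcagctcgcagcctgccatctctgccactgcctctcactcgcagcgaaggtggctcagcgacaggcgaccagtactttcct
Gpr12 promoter, chr5:146584355-146584654, minus strand: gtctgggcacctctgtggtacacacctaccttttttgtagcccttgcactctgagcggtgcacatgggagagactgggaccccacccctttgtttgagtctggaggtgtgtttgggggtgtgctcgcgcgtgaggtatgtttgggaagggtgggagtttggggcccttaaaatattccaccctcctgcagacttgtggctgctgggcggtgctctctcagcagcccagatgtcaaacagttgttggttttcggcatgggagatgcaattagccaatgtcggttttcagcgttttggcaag
Gpr12 promoter, chr5:146585190-146585489, minus strand: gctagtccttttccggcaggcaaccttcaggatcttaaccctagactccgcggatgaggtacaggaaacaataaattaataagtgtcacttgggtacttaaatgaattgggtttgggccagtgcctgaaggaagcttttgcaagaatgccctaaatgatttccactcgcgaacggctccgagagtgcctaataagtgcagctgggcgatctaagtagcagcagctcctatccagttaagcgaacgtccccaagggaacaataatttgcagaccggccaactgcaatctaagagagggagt

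The Gpr3 window held 2 matches to the core TGACG, beginning at -196 and -40 from the start site, and an AP-1 match at -1. The Gpr6 window held 1 full cAMP response element at -78. Both Gpr12 windows held 0 matches to the 4 motifs. The annotated Gpr12 gene extends upstream of both windows, to chr5:146586465, and its upstream end had no window and was not searched. Over all 32851 promoter windows of the table, 1.79% held the full element, 20.8% the core, 7.81% the AP-1 motif and 5.55% the Egr1 motif. Over the 60 windows of the 44 matched receptors these shares were 1.67%, 33.3%, 6.67% and 13.3%. Some receptors had several windows. Overlapping windows counted the same Egr1 match of Gpr19 and the same core match of Gpr108 more than once. A match is a match of letters, and binding was not measured.

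The SREB family (super conserved receptors expressed in brain) comprises Gpr85, Gpr27 and Gpr173, and it too was split. Gpr85 (ENSMUSG00000048216, chr6:13834406-13839942) had 499, 439, 504 and 408 CPM in the PTX libraries, against 194, 172, 146 and 124 CPM in the CTRL libraries. The lowest PTX library was above the highest CTRL library by more than the spread of either group, and Gpr85 rose 2.91-fold (log2 change 1.54 ± 0.14 SE; adjusted p = 2.38e-05, edgeR). Gpr27 had 2.87, 2.95, 3.65 and 2.49 CPM in the PTX libraries, against 5.31, 4.94, 5.04 and 3.72 CPM in the CTRL libraries, which did not overlap. Gpr27 fell 1.59-fold (log2 change -0.67 ± 0.19 SE; adjusted p = 0.0186, edgeR). The Gpr27 call was lost without both libraries numbered 1 and without PTX library 1 or 4 or CTRL library 1 or 3 (adjusted p over alternatives 0.00306 to 0.0842). Gpr173 averaged 10.8 ± 1.09 CPM in PTX and 9.75 ± 1.05 CPM in CTRL (SD, n = 4 each), with adjusted p = 0.394 in edgeR. The Gpr85 promoter, shown as that of the receptor with the most counts of the set, had 33.3% GC, against 72.0% in the Gpr3 window, and 0 matches to the 4 motifs.
Gpr85 promoter, chr6:13839893-13840192, minus strand: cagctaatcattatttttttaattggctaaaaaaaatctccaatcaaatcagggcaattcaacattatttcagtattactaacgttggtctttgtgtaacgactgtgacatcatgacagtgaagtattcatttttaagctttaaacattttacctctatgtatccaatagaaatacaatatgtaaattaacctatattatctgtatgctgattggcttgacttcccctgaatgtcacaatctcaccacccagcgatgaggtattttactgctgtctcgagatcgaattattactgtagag

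Class C orphans resemble metabotropic glutamate receptors in structure. Gpr158, known to bind the G protein regulator Rgs7 and to hold it at the membrane, had 253, 162, 269.8 and 215 CPM in the PTX libraries, against 109, 83.5, 105 and 88.1 CPM in the CTRL libraries. The groups did not overlap, and Gpr158 (chr2:21367567-21830544) rose 2.33-fold (log2 change 1.22 ± 0.16 SE; adjusted p = 0.00022, edgeR). Its partner Rgs7, a GTPase-activating protein, averaged 340.1 ± 32.1 CPM in PTX and 68.6 ± 6.30 CPM in CTRL (SD, n = 4 each) and rose 4.96-fold (edgeR adjusted p = 4.87e-07). The Rgs7 anchor Rgs7bp rose 1.69-fold (edgeR adjusted p = 0.00427). Gpr179, known from retinal bipolar cells, averaged 1.42 ± 0.611 CPM in PTX and 2.02 ± 0.584 CPM in CTRL (SD, n = 4 each) and did not pass (edgeR adjusted p = 0.287).

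Of the 18 class A orphans grouped together here, mostly known from neurons, 6 rose, 2 fell and 10 did not pass. With the replicate block 9 rose and 3 fell. The shares over all tested genes were 19.0% and 20.1% (25.7% and 29.6% with the block). Gpr101, a receptor coupled to the stimulatory G protein whose duplication in humans causes excess growth, had 10.1, 8.67, 11.9 and 11.1 CPM in the PTX libraries, against 3.30, 3.65, 3.75 and 2.03 CPM in the CTRL libraries. It rose 3.26-fold (log2 change 1.70 ± 0.21 SE; adjusted p = 0.000139, edgeR) with no overlap. Gpr19 had 33.1, 33.4, 44.4 and 41.1 CPM in the PTX libraries, against 13.7, 17.1, 17.7 and 17.0 CPM in the CTRL libraries. It rose 2.32-fold (log2 change 1.21 ± 0.13 SE; adjusted p = 6.20e-05, edgeR), and the lowest PTX library stood well above the highest CTRL library. Gpr176, known for setting the pace of the circadian clock in the suprachiasmatic nucleus of mice, had 14.9, 12.7, 14.7 and 15.2 CPM in the PTX libraries, against 6.84, 7.07, 6.39 and 4.38 CPM in the CTRL libraries. It rose 2.33-fold (log2 change 1.22 ± 0.16 SE; adjusted p = 0.000251, edgeR), again without overlap. Gpr63, a relative of Gpr45, had 5.49, 5.01, 4.48 and 4.07 CPM in the PTX libraries, against 2.83, 1.85, 1.35 and 1.96 CPM in the CTRL libraries. It rose 2.39-fold (log2 change 1.26 ± 0.24 SE; adjusted p = 0.00225, edgeR), whereas Gpr45 averaged 9.55 ± 1.26 CPM in PTX and 9.12 ± 1.72 CPM in CTRL (SD, n = 4 each) and did not pass (edgeR adjusted p = 0.787).

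Gpr26, a brain receptor with activity of its own, had 171, 129.9, 148 and 139.7 CPM in the PTX libraries, against 94.1, 92.2, 89.7 and 80.2 CPM in the CTRL libraries, and it rose 1.65-fold (log2 change 0.72 ± 0.10 SE; adjusted p = 0.000292, edgeR). Gpr22 had 189.6, 181, 190.3 and 146 CPM in the PTX libraries, against 163, 138, 130.2 and 99.4 CPM in the CTRL libraries. These groups overlapped, since CTRL library 1 exceeded PTX library 4, and Gpr22 rose 1.33-fold (log2 change 0.41 ± 0.15 SE; adjusted p = 0.0488, edgeR). The Gpr22 call was lost without PTX library 1, 2 or 3 or CTRL library 2, 3 or 4 (adjusted p over alternatives 0.000214 to 0.108). Gpr22 lies within the span of Cog5, Gpr19 overlaps Crebl2, and Gpr27 above overlaps Eif4e3. Gpr75, reported to bind a fatty acid metabolite, had 1.60, 2.01, 1.17 and 1.09 CPM in the PTX libraries, against 4.25, 4.04, 5.14 and 4.51 CPM in the CTRL libraries. It fell 3.04-fold (log2 change -1.60 ± 0.23 SE; adjusted p = 0.000401, edgeR), with every PTX library well below every CTRL library, and it overlaps Erlec1. Gpr83, reported as a neuropeptide receptor, had 0.894, 1.71, 1.24 and 1.09 CPM in the PTX libraries, against 3.18, 2.92, 2.45 and 2.09 CPM in the CTRL libraries and fell 2.15-fold (log2 change -1.10 ± 0.26 SE; adjusted p = 0.00704, edgeR) without overlap.

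Gpr162 and Gpr135 were higher in PTX in 4 of 4 same-numbered pairs and passed with the block alone among fits on all libraries (edgeR adjusted p = 0.127 and 0.0796 without it, 0.00383 and 0.0345 with it). Both also passed without PTX library 4. Gpr146 was lower in 4 of 4 pairs, at 11.7 ± 4.67 CPM in PTX and 15.6 ± 5.70 CPM in CTRL, and passed with the block only (edgeR adjusted p = 0.38 without and 0.00251 with it). Of the same group, Gpr21, Gpr45, Gpr61, Gpr62, Gpr149 and Gpr153 lay between -0.38 and 0.29 on the log2 scale and passed under neither fit.

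**Figure D3:**
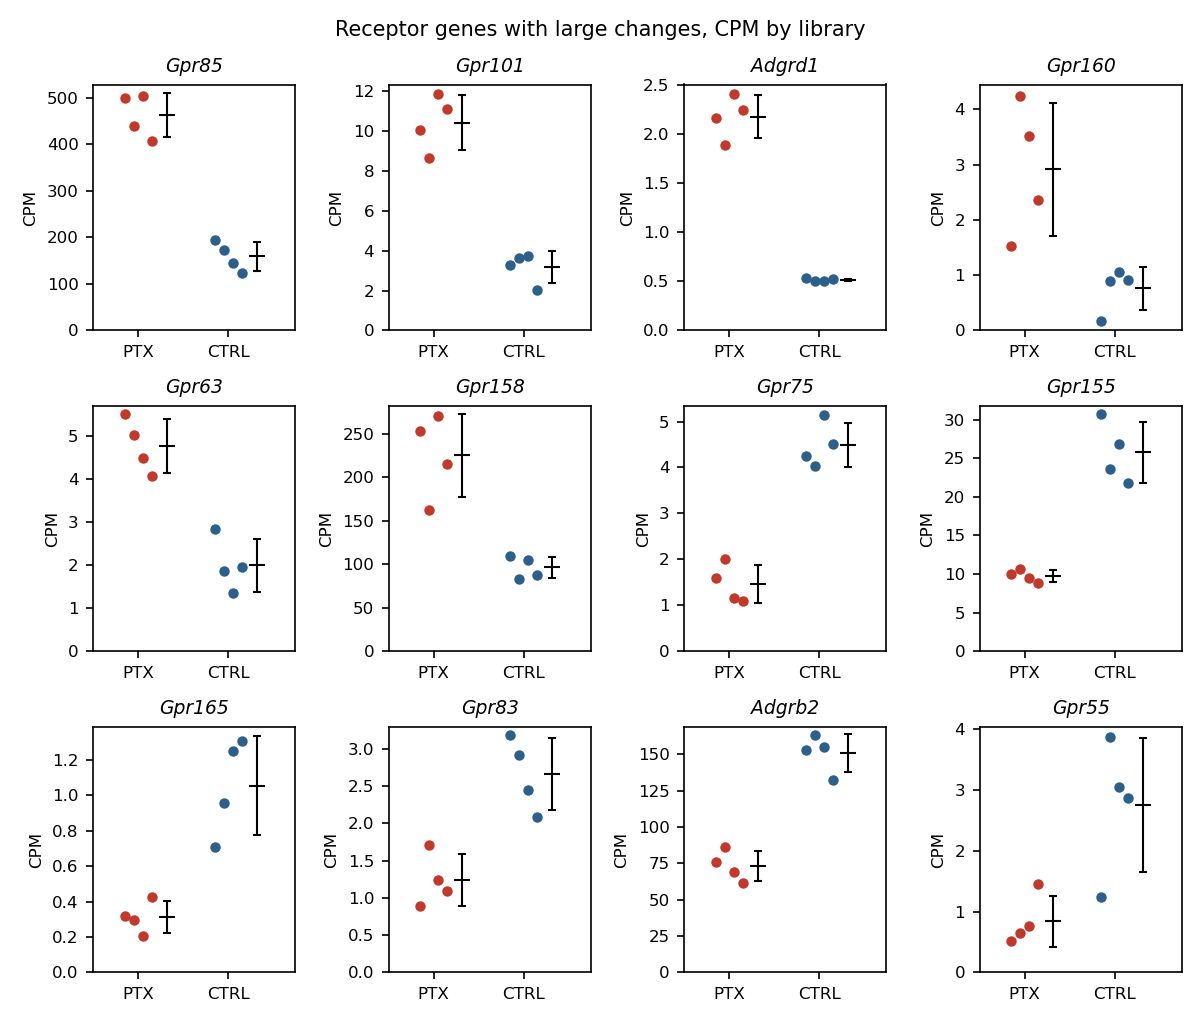
CPM (y axis, from 0) of 12 receptor genes in the 4 PTX (left) and 4 CTRL (right) libraries, 1 point per library, with mean and SD as the black bar. The groups are apart in each panel except Gpr55, where 1 CTRL library at 1.24 CPM lies below 1 PTX library at 1.46 CPM.

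Of 7 receptors known from organelles or of atypical kind 3 fell, as did the 1 ciliary receptor, and 0 rose. Over all tested genes 20.1% fell and 19.0% rose, and counts out of 7 are small. Gpr161, whose gene overlaps Tiprl and which raises cAMP at the primary cilium and restrains Hedgehog signalling, had 39.8, 39.2, 39.0 and 47.3 CPM in the PTX libraries, against 53.4, 54.1, 55.0 and 53.6 CPM in the CTRL libraries. PTX library 4 was the highest of its group, but the groups did not overlap, and Gpr161 fell 1.31-fold (log2 change -0.39 ± 0.08 SE; adjusted p = 0.00409, edgeR). Gpr155, a cholesterol sensor of the lysosome, had 10.0, 10.7, 9.51 and 8.86 CPM in the PTX libraries, against 30.7, 23.6, 26.9 and 21.8 CPM in the CTRL libraries. It fell 2.64-fold (log2 change -1.40 ± 0.13 SE; adjusted p = 2.41e-05, edgeR), and the groups were far apart. Gpr89, a regulator of Golgi pH whose gene overlaps Pdzk1, had 20.6, 26.7, 20.1 and 21.7 CPM in the PTX libraries, against 35.3, 28.7, 30.4 and 27.6 CPM in the CTRL libraries. It fell 1.37-fold (log2 change -0.45 ± 0.12 SE; adjusted p = 0.0129, edgeR), and its groups did not overlap. Gpr137, a lysosomal protein whose gene overlaps Bad, fell 1.36-fold, at 13.8 ± 1.94 CPM in PTX and 18.7 ± 2.44 CPM in CTRL (log2 change -0.44 ± 0.14 SE; adjusted p = 0.0277, edgeR). Without both libraries numbered 1, neither Gpr89 nor Gpr137 passed. Across the alternatives the adjusted p of Gpr89 lay between 0.00221 and 0.065, and that of Gpr137 between 0.00608 and 0.107. Gpr89 was also lost without PTX library 3, and Gpr137 without PTX library 1, 3 or 4 or CTRL library 1 or 3. Gpr107, known from membrane trafficking, had 89.3, 89.6, 92.5 and 92.2 CPM in the PTX libraries, against 83.7, 86.2, 86.6 and 86.6 CPM in the CTRL libraries, which did not overlap, yet it did not pass (log2 change 0.08 ± 0.06 SE; adjusted p = 0.346, edgeR). Gpr108, Gpr157 and Gpr180 lay between -0.09 and -0.04 and did not pass.

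Of the 5 receptors grouped here by a reported ligand or partner, Gpr55 fell and the rest did not pass without the block. Gpr75, Gpr83 and Gpr158, described above with a reported ligand or partner, were counted in other groups. Gpr55, a receptor for lysophosphatidylinositol, had 0.511, 0.649, 0.758 and 1.46 CPM in the PTX libraries, against 1.24, 3.87, 3.05 and 2.87 CPM in the CTRL libraries. It fell 3.24-fold (log2 change -1.70 ± 0.42 SE; adjusted p = 0.00879, edgeR), though CTRL library 1 was below PTX library 4. Gpr17, a receptor of oligodendrocyte precursors that restrains their maturation, had 0.574, 8.20, 7.45 and 3.82 CPM in the PTX libraries, against 0.118, 3.76, 2.65 and 2.09 CPM in the CTRL libraries. Both libraries numbered 1 were at under 1 CPM, while PTX exceeded CTRL in 4 of 4 pairs. Gpr17 did not pass (log2 change 1.21 ± 0.79 SE; adjusted p = 0.261, edgeR), passed with the replicate block (adjusted p = 0.000127), and passed without both libraries numbered 1. Beside it, the 5 oligodendrocyte precursor markers summed to 183 to 436 CPM in PTX and 169 to 384 CPM in CTRL, lowest in library 1 of each group, with 0 called without the block and 3 higher with it. Their part in the Gpr17 difference was not tested.

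Gpr37, known from oligodendrocytes and as a target of the ubiquitin ligase parkin, had 8.11, 18.6, 14.1 and 12.1 CPM in the PTX libraries, against 19.0, 28.2, 20.2 and 14.9 CPM in the CTRL libraries. It was lower in PTX in 4 of 4 pairs, missed the threshold (log2 change -0.64 ± 0.25 SE; adjusted p = 0.0737, edgeR) and passed with the block (adjusted p = 0.000728). It also passed without PTX library 2, without CTRL library 4 and with every detected gene kept. Gpr39, a zinc receptor, had 6.51, 20.1, 8.89 and 7.46 CPM in the PTX libraries, against 14.6, 16.3, 14.9 and 12.5 CPM in the CTRL libraries. PTX library 2 was above all CTRL libraries and the other PTX libraries below them; edgeR gave adjusted p = 0.306, and 0.0241 with the block. Without PTX library 2, Gpr39 passed with adjusted p = 0.00104 and a log2 fold change of -0.94.

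Gpr34, Gpr65 and Adgre1, known from microglia and other immune cells, were lowest in the libraries numbered 1. Gpr34, a lysophosphatidylserine receptor of microglia, had 0.574, 5.66, 1.59 and 3.94 CPM in the PTX libraries, against 0.826, 2.41, 2.20 and 3.07 CPM in the CTRL libraries. The proton sensor Gpr65, known from immune cells, had 0.319, 1.77, 0.896 and 1.40 CPM in the PTX libraries, against 0.236, 1.01, 0.999 and 0.849 CPM in the CTRL libraries. Adgre1, the macrophage surface marker, had 2.87, 29.5, 8.69 and 16.0 CPM in the PTX libraries, against 2.30, 17.7, 16.7 and 12.3 CPM in the CTRL libraries. In all 3 genes library 1 was lowest in each group, as were the summed microglia markers (42.9 to 160.4 CPM in PTX, 17.4 to 84.2 CPM in CTRL). Of these markers Tmem119 went the other way, highest in library 1 of each group (2.62 CPM in PTX, 2.59 CPM in CTRL). Of the 9 microglia markers 8 were tested, and Cd68 rose, where 19.0% of all tested genes rose. With the replicate block 3 were higher, Cd68, Csf1r and P2ry12, where 25.7% of all tested genes were. None of the 3 receptors passed with or without the block (edgeR adjusted p = 0.575, 0.497 and 0.83 without it). Adgre5, a leukocyte receptor that binds Cd55, averaged 8.88 ± 2.74 CPM in PTX and 7.58 ± 1.09 CPM in CTRL (SD, n = 4 each) and did not pass (edgeR adjusted p = 0.467).

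**Figure D4:**
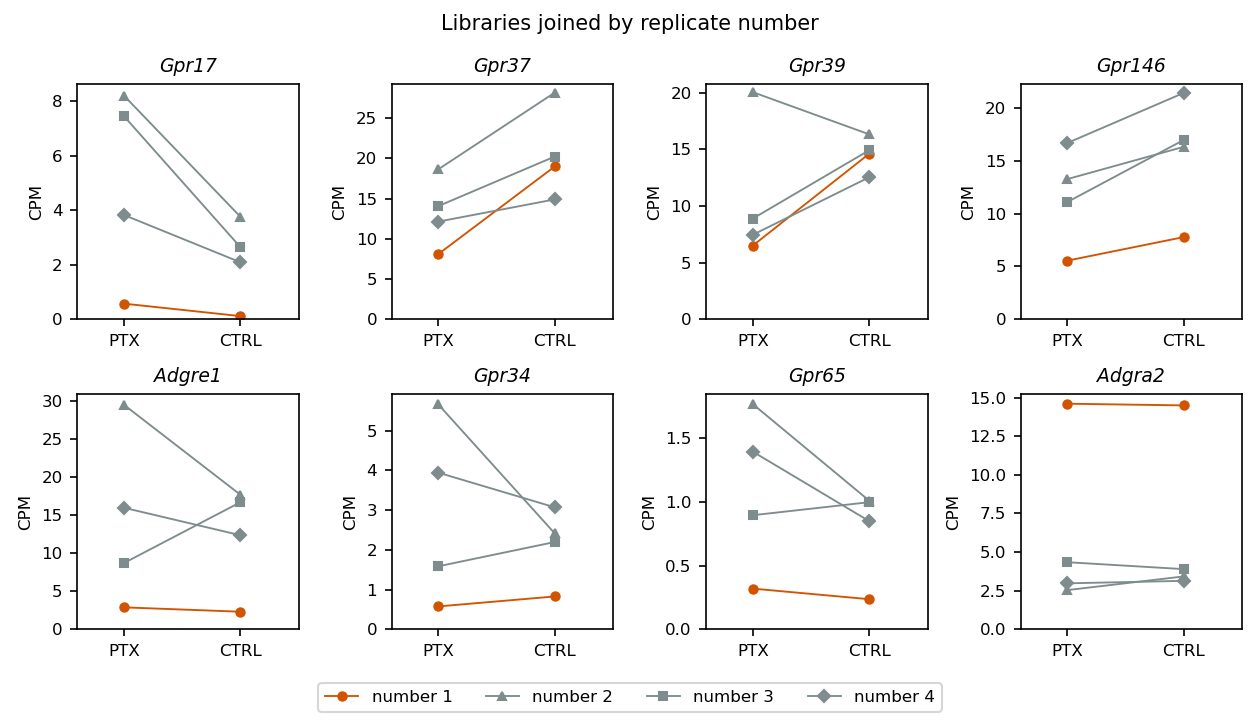
CPM (y axis, from 0) of 8 receptor genes, PTX (left) joined to CTRL (right) by replicate number, with number 1 in orange and numbers 2 to 4 in grey. Gpr17, Gpr146, Adgre1, Gpr34 and Gpr65 are lowest in the libraries numbered 1, and Adgra2 is highest there, at 14.6 CPM in PTX and 14.5 CPM in CTRL.

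Outside these groups, the orphan Gpr160 had 1.53, 4.25, 3.52 and 2.37 CPM in the PTX libraries, against 0.177, 0.898, 1.05 and 0.915 CPM in the CTRL libraries. It rose 3.79-fold (log2 change 1.92 ± 0.47 SE; adjusted p = 0.00842, edgeR) and did not overlap, with library 1 lowest in both groups. The orphan Gpr165 had 0.319, 0.295, 0.207 and 0.425 CPM in the PTX libraries, against 0.708, 0.954, 1.25 and 1.31 CPM in the CTRL libraries. It fell 3.31-fold (log2 change -1.73 ± 0.34 SE; adjusted p = 0.00271, edgeR), which rests on 20 counts in PTX and 74 in CTRL.

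Among adhesion receptors, each of the 2 families known from synapses had members that moved in opposite directions. In the Adgrb family, Adgrb1 is known to take part in engulfment of dying cells through Elmo1 and Dock1, and in spine formation. Adgrb3 is known to bind C1q-like proteins at synapses. Adgrb2 (ENSMUSG00000028782, chr4:129984773-130022633) had 75.9, 86.1, 69.0 and 61.3 CPM in the PTX libraries, against 153, 163, 155 and 132 CPM in the CTRL libraries. It fell 2.06-fold (log2 change -1.04 ± 0.11 SE; adjusted p = 7.61e-05, edgeR), with no PTX library near the CTRL range. Adgrb3 (chr1:25067476-25834772) had 157, 161, 169 and 147 CPM in the PTX libraries, against 236, 219, 222 and 210.0 CPM in the CTRL libraries. It fell 1.40-fold (log2 change -0.48 ± 0.08 SE; adjusted p = 0.000652, edgeR). Adgrb1 had 85.6, 69.9, 69.0 and 64.9 CPM in the PTX libraries, against 55.8, 61.2, 55.9 and 49.4 CPM in the CTRL libraries. It rose 1.30-fold (log2 change 0.38 ± 0.11 SE; adjusted p = 0.0162, edgeR), and the 3 genes of the family all had groups that did not overlap.

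Latrophilins bind teneurins and FLRT proteins across the synapse, and Adgrl1 is the receptor of a black widow spider toxin. Adgrl1 (chr8:83900098-83941954) had 142, 122, 108 and 113 CPM in the PTX libraries, against 198, 166, 186 and 171 CPM in the CTRL libraries. It fell 1.49-fold (log2 change -0.57 ± 0.10 SE; adjusted p = 0.00158, edgeR). Adgrl3 (chr5:81019085-81827825) had 284, 255, 329 and 236 CPM in the PTX libraries, against 208, 200.1, 208 and 185 CPM in the CTRL libraries. It rose 1.38-fold (log2 change 0.46 ± 0.11 SE; adjusted p = 0.00694, edgeR), and neither gene's groups overlapped. Adgrl2 averaged 73.8 ± 8.24 CPM in PTX and 75.2 ± 5.90 CPM in CTRL (SD, n = 4 each) and did not pass (edgeR adjusted p = 0.863).

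The other adhesion receptors included 2 rises. Adgrd1, which passed the count threshold through PTX alone, had 2.17, 1.89, 2.41 and 2.25 CPM in the PTX libraries, against 0.531, 0.505, 0.499 and 0.523 CPM in the CTRL libraries. It rose 4.19-fold (log2 change 2.07 ± 0.22 SE; adjusted p = 6.62e-05, edgeR). The 4 CTRL libraries hardly differed, but they held only 9, 9, 10 and 8 counts. Adgra1, a receptor of brain neurons, had 41.2, 41.2, 39.4 and 42.8 CPM in the PTX libraries, against 22.4, 16.6, 20.0 and 21.6 CPM in the CTRL libraries. It rose 2.05-fold (log2 change 1.03 ± 0.10 SE; adjusted p = 4.27e-05, edgeR), and its groups did not overlap. Adgra3 had 34.9, 42.3, 48.7 and 45.4 CPM in the PTX libraries, against 47.8, 53.5, 55.7 and 53.8 CPM in the CTRL libraries. Its groups overlapped, and it fell 1.23-fold (log2 change -0.30 ± 0.11 SE; adjusted p = 0.0484, edgeR). Its call was lost in 12 of 14 alternatives, with adjusted p from 0.00244 to 0.204. Adgrg6, needed for myelination by Schwann cells, had 8.81, 8.32, 11.5 and 9.71 CPM in the PTX libraries, against 10.9, 13.9, 15.7 and 17.4 CPM in the CTRL libraries. It fell 1.51-fold (log2 change -0.60 ± 0.17 SE; adjusted p = 0.0175, edgeR), and the groups overlapped, since PTX library 3 exceeded CTRL library 1. The Adgrg6 call was lost without PTX library 1 or 4 or CTRL library 3 or 4 (adjusted p over alternatives 0.00071 to 0.0708).

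Adgra2, known from brain vessels as a coactivator of Wnt7 signalling with Reck, had 14.6, 2.54, 4.34 and 2.97 CPM in the PTX libraries, against 14.5, 3.42, 3.89 and 3.14 CPM in the CTRL libraries. Library 1 was far above every other library in each group, as was the sum of the meningeal fibroblast markers. Of these markers Ogn was instead lowest in library 1 of each group (53.1 CPM in PTX, 73.9 CPM in CTRL). The part of these markers in the Adgra2 pattern was not tested. Adgra2 did not pass (log2 change -0.03 ± 0.66 SE; adjusted p = 0.978, edgeR). Without CTRL library 1 the log2 fold change was 0.87, and it did not pass. Adgrg1, a receptor for collagen III in the developing cortex, averaged 20.2 ± 5.49 CPM in PTX and 20.5 ± 3.16 CPM in CTRL (SD, n = 4 each). Adgrg2 averaged 1.91 ± 0.441 CPM in PTX and 2.01 ± 0.383 CPM in CTRL (SD, n = 4 each), and Adgrv1, an Usher syndrome protein of the inner ear, 32.1 ± 6.24 CPM in PTX and 31.6 ± 8.50 CPM in CTRL (SD, n = 4 each). These 3 did not pass (edgeR adjusted p = 0.957, 0.856 and 0.945).

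Ligands of adhesion receptors, listed with other proteins that bind these ligands or receptors, also moved both ways. The list includes Unc5a, Unc5b, Unc5c and Unc5d, which bind FLRT proteins and are not counted as ligands in the strict sense. Of its 26 genes 25 were tested, and 6 rose and 6 fell (11 and 9 with the replicate block). Their median log2 fold change was 0.04. Rises and falls were 24% each, against 19.0% and 20.1% of all tested genes (25.7% and 29.6% with the block). C1ql3, a synaptic ligand of Adgrb3, averaged 349 ± 49.2 CPM in PTX and 100.1 ± 7.11 CPM in CTRL (SD, n = 4 each) and rose 3.48-fold (edgeR adjusted p = 2.80e-06). Unc5b, a netrin receptor that binds FLRT proteins, rose 3.68-fold (edgeR adjusted p = 0.000104). Flrt1 averaged 2.66 ± 0.352 CPM in PTX and 8.24 ± 1.11 CPM in CTRL (SD, n = 4 each) and fell 3.09-fold (edgeR adjusted p = 6.01e-05), and Unc5a fell 3.48-fold (edgeR adjusted p = 1.21e-05). Of the teneurins, Tenm4 rose 1.46-fold and Tenm1, Tenm2 and Tenm3 fell 1.35-fold, 1.44-fold and 1.30-fold. Another list held 14 partners and pathway genes of single receptors, among them the Hedgehog pathway genes Ptch1, Smo, Gli1, Gli2 and Gli3. Of these 13 were tested, and 4 rose and 2 fell (6 and 4 with the block), with a median of 0.24. These calls were 30.8% and 15.4% of the 13, beside the same shares over all tested genes. Besides Rgs7 and Rgs7bp, Elmo1 rose 3.49-fold (edgeR adjusted p = 8.48e-06) and Tulp3, which carries receptors into cilia, 1.34-fold. The Hedgehog receptor gene Ptch1 fell 1.70-fold (edgeR adjusted p = 0.00125) and the ciliary transport gene Ift122 1.63-fold.

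The signalling proteins below the receptors were split as well. Of 10 adenylyl cyclases 8 were tested. Adcy8, a calcium-stimulated cyclase, averaged 99.7 ± 10.9 CPM in PTX and 27.5 ± 4.38 CPM in CTRL (SD, n = 4 each) and rose 3.62-fold (edgeR adjusted p = 5.08e-06). Adcy1, also calcium-stimulated, averaged 323 ± 57.0 CPM in PTX and 746 ± 67.6 CPM in CTRL (SD, n = 4 each) and fell 2.31-fold (edgeR adjusted p = 6.01e-05), and Adcy3 (1.51-fold) and Adcy6 fell too. With the replicate block 6 cyclases fell and 1 rose, and the list's median log2 fold change was -0.31. Of 13 G protein alpha subunits 12 were tested: Gna13 (1.39-fold), Gnai3 (1.21-fold) and Gna14 rose, and Gnaq (1.61-fold), Gnao1 (1.42-fold) and Gnal fell (3 and 4 with the block, median -0.12). Of 15 beta and gamma subunits 12 were tested: Gng4 (2.15-fold) and Gnb4 (2.26-fold) rose, and Gng13 (2.91-fold) and Gnb1 (1.25-fold) fell (4 and 3 with the block, median -0.06). Of 8 kinases and arrestins that switch receptors off, Grk5 rose 2.28-fold (edgeR adjusted p = 4.28e-05), and Grk3 (1.84-fold) and Arrb2 (1.58-fold) fell (1 and 4 with the block, median -0.10). All these medians stand beside the -0.03 over all tested genes. The counts stand beside 19.0% of all tested genes that rose and 20.1% that fell (25.7% and 29.6% with the block).

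Markers of other cell types moved too. Of 7 inhibitory neuron markers, Gad1, Gad2 and Sst rose and Dlx1 and Lhx6 fell, with a summed level of 917 to 1031 CPM in PTX and 524 to 685 CPM in CTRL. Of 7 astrocyte markers, Aldoc, Aqp4, Gfap and Slc1a2 fell and 0 rose, at 4508 to 6229 CPM in PTX and 6183 to 8352 CPM in CTRL. Of 6 oligodendrocyte markers 4 were tested and 0 called (3 higher with the block), at 53.8 to 80.7 CPM in PTX and 40.7 to 69.1 CPM in CTRL. Of 8 endothelial and mural markers 4 were tested, and Flt1 rose (2 higher and 1 lower with the block), at 32.1 to 51.4 CPM in PTX and 29.2 to 59.8 CPM in CTRL. Of 8 meningeal fibroblast markers 0 were called (4 lower with the block). These counts stand beside 19.0% of all tested genes that rose and 20.1% that fell (25.7% and 29.6% with the block). The part of the marker shifts in the receptor results was not tested.

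L3mbtl1 peaks lay within 2000 bp of an end of 10 of the 60 receptor genes (16.7%), against 26.0% of 14740 tested genes with a position. Of these 10 genes Gpr3, Gpr176, Adgrl3 and Adgrb1 rose, Adgrl1 fell, and Gpr6, Gpr37, Gpr135, Gpr180 and Adgrl2 did not pass. Beside these calls, 19.0% of all tested genes rose and 20.1% fell. Counts out of 10 are small, and the shares among all genes with a peak were not computed. Coordinates are those of the deposited mm10 list, counted from 1. The score is the authors' value for each peak, and the rank is the place of that score among the 4677 peaks. The peak near Gpr3 (chr4:133212679-133213186, score 8.57) lay 143 to 650 bases before its start site, and overlapped the window printed above. At Gpr6, 1 peak of 1062 bp (chr10:41071625-41072686) covered the start site and the whole printed window, and another of 204 bp lay within the gene. The best-ranked of these peaks, at 747, was that of Gpr135 (chr12:72069403-72071106, score 15.1). It spans 1704 bp over the start site, and an end of L3hypdh lies within 2000 bp of the same peak.

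At Adgrl1 a peak of 252 bp (chr8:83899906-83900157, rank 2901) covered the start site, and at Gpr37 a peak of 533 bp (chr6:25689611-25690143, rank 3841) did so. Their promoters are shown because the annotated start lies in a peak, and both windows held 0 matches to the 4 motifs above. The starts of Gpr6 and Gpr135 also lie in a peak. The Gpr6 window, printed above, held the full element, and the Gpr135 window, not printed, held 1 core match at -15.
Adgrl1 promoter, chr8:83899848-83900147, plus strand: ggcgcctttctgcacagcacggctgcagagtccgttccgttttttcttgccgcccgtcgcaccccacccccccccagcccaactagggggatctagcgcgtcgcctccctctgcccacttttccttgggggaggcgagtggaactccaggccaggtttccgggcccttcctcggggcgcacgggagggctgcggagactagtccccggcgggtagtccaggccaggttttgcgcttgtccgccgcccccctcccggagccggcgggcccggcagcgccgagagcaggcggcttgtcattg
Gpr37 promoter, chr6:25689931-25690230, minus strand: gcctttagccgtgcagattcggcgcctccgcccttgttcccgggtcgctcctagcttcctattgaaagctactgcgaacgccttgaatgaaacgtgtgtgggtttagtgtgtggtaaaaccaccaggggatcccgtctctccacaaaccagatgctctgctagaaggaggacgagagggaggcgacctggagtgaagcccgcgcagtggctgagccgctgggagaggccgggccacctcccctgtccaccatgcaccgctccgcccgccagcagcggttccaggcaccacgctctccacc

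The peaks of Gpr180 and Adgrl3 lay 49 and 147 bases before the nearest start site of the table, and that of Gpr176 began 503 bases after it. The Adgrl2 peak, 3152 bp wide, lay over the upstream end of the gene, at -33486 from the start site in the table. At Adgrb1 the peak (chr15:74517163-74517802) lay inside the gene. With only the peaks that score above the list's median, 3 of the 60 genes had a peak.

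**Figure D5:**
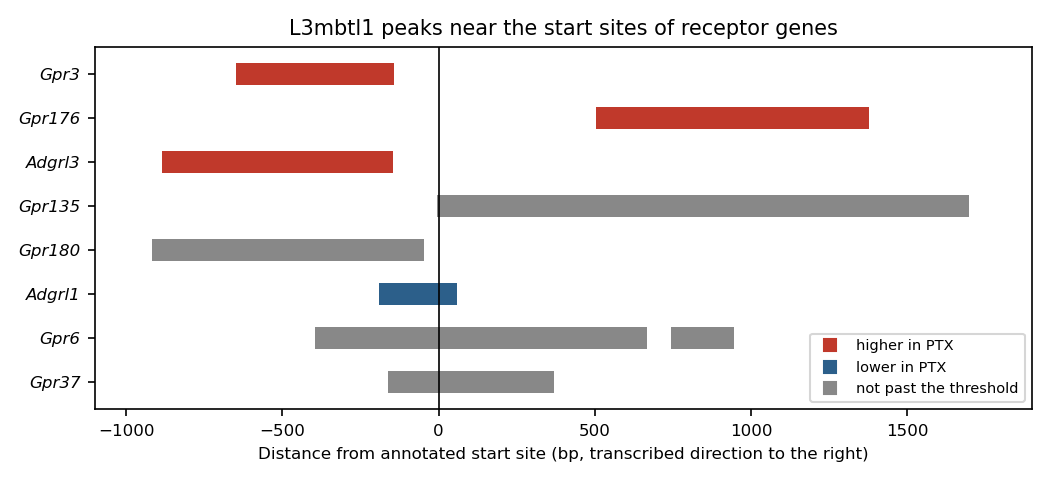
L3mbtl1 peaks (bars) by distance in bp from the nearest annotated start site (vertical line at 0, transcribed direction to the right) at 8 receptor genes, ordered by fold change from the top. Red genes rose in PTX, the blue gene fell and grey genes did not pass; bars cross the start site at Gpr135, Adgrl1, Gpr6 and Gpr37.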

How the data were processed

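Raw read counts per Ensembl gene were used as the authors deposited them, 1 table per RNA-seq library. Libraries were made with ScriptSeq v2 after ribosomal RNA depletion, per the labels' protocols. The submitters' processing notes name CASAVA 1.8, TopHat2 2.0.9, HTSeq 0.6.1, Bowtie2 2.2.4 and build mm10, without roles. Counting strand and annotation: not given in the sources used here. Each peak of the deposited list has a score, whose meaning is likewise not stated, nor are the peak caller and the use of knockout samples. The 5 summary lines were left out (19.9% to 26.8% outside genes, 15.2% to 20.5% not unique). Symbols matched 42462 identifiers.

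PTX and CTRL were compared with edgeR 4.0.16 in R 4.3.3 (TMM, filterByExpr, quasi-likelihood test, group as the only term, tested on simulated data) over all genes. SE is the size of the log2 fold change divided by the square root of F. The alternatives were RLE factors, DESeq2 1.42.0, 2 other count filters, a replicate block, leaving out libraries, and other count thresholds, windows and peak scores. Pairing was checked, from the replicate numbers in the labels, on deviations of log2(CPM + 0.5) from group means over all tested genes: same-numbered pairs correlated at 0.789, 0.584, 0.165 and 0.654, and other pairs at -0.531 to 0.221. Peaks overlapping a window of 2000 bp on each side of a gene end by 1 bp or more were assigned to that gene, with positions and promoters from RefSeq (GRCm38.p6). A gene is said to rise or fall where adjusted p is under 0.05. Members, role groups, gene lists and the rule for named genes were chosen with earlier results of these data known. Per library are given the largest called changes of 2-fold or more, the called members of smallest p in each role group, called members with a peak, and the largest changes not called; others were named after their values were seen. The totals cover every member, but 3 members are not reported here by name.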

Additional observations from a re-analysis of the deposited data

Results flagged for a closer look

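In 7 of 120 sets of 4 libraries, 1 library stood far from the other 3 by Dixon's criterion, which chance alone gives in about 1 in 20. Library 1 was the one that stood apart in 6 of them. Adgra2 was at 14.6 CPM in PTX library 1, where the other PTX libraries had 2.54 to 4.34 CPM, and at 14.5 CPM in CTRL library 1, where the others had 3.14 to 3.89 CPM. In CTRL library 1, Gpr45 was at 11.7 CPM (8.04 to 8.53 CPM in the others) and Gpr62 at 1.24 CPM (0.849 to 0.898 CPM). In the same library Adgre5 was low, at 5.96 CPM (7.99 to 8.3 CPM in the others), and Gpr107 was at 83.7 CPM (86.2 to 86.6 CPM). Gpr161 was at 47.3 CPM in PTX library 4, where the other PTX libraries had 39.0 to 39.8 CPM.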

How the results depend on the processing

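Under 14 refits the number of receptors that rose ran from 13 to 18 and the number that fell from 11 to 18. Leaving out 1 library each gave 13 to 16 and 11 to 16. Among the genes of the main test, the 14 refits called 5049 to 8820 in either direction, against 6248 in the main fit. Of the 29 called receptors 23 kept their call in every refit that tested them, 6 lost it in at least 1, and 0 changed direction. The replicate block gave 18 and 18, with 7 calls not made without it and no other call changed. Count thresholds of 20 and 200 gave 14 and 13 rises and 15 and 14 falls. Windows of 1000 and 5000 bp gave 9 and 12 genes with a peak, and peaks that score above the list's median 3. No scaling moved the median of all tested genes by over 0.1.

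The sign turned, on the log2 scale, in receptors that did not pass, as follows. It turned with RLE factors and DESeq2 for Adgra2 (0.019 and 0.020), Adgrl2 (0.0040 and 0.0020) and Adgrg1 (0.011 and 0.0094). Without both libraries numbered 1 it turned for Gpr180 (0.00062), Adgrl2 (0.082), Adgrg1 (0.077) and Adgrv1 (-0.011). Leaving out 1 library at a time turned it in at least 1 case for Adgra2 (-0.87 to 0.87), Adgre1 (-0.44 to 0.59), Adgrg1 (-0.13 to 0.17), Adgrg2 (-0.17 to 0.064), Adgrl2 (-0.091 to 0.091), Adgrv1 (-0.050 to 0.22), Gpr108 (-0.13 to 0.066), Gpr157 (-0.19 to 0.17), Gpr180 (-0.21 to 0.062) and Gpr34 (-0.071 to 0.85). The causes were not tested. Receptors at about 1 CPM rest on few reads, and no SD stands behind the peak list.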

Other observations

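Under the threshold of 80 counts, Gpr50, a relative of melatonin receptors, had 18, 4, 15 and 15 counts in the PTX libraries, against 0, 2, 1 and 0 counts in the CTRL libraries. It was not among the genes tested.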
